A study of Mus musculus with 15 samples.

Results

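Interferon response genes are the genes that cells switch on when type I or type II interferon reaches them. The set described here was a list of 39 symbols of mouse interferon-induced genes, chosen with earlier results of these data known. Of these, 38 had a row among the 20325 genes of the deposited liver RNA-seq tables. Gbp7 had no row of its own. The row named Gbp6 holds transcripts that RefSeq now lists under Gbp7, and the gene now called Gbp6 stands in these tables under its older symbol Mpa2l, so the row names are used as deposited. All 38 genes passed the filter on low counts and were tested among 12377 genes.

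The livers came from 15 male C57BL/6J mice of 19 weeks, 3 in each of 5 groups. Conventionally raised mice fed a diet high in fat and sucrose (ConvR HF/HS) had carried a microbiota since birth, and mice of the GF HF/HS group were kept germ-free on the same diet. Conventionalized mice on chow (ConvD chow) were germ-free until 15 weeks of age, then received cecal contents of ConvR donors on chow by gavage, given once, and lived with that microbiota for 4 weeks. The remaining groups were ConvR mice on chow and GF mice on chow. Diets began at 3 weeks of age, and fat, carbohydrate and protein supplied 44.6%, 40.6% and 14.8% of the energy of HF/HS and 23.7%, 53.2% and 23.1% of that of chow. The labels name no mutation or transgene in any group. GF and ConvR mice lived in separate isolators, ConvD mice lived in filter-top cages and mice were housed together by group, so that effects of cage or isolator and of group cannot be told apart.

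Type I interferons act through the receptor chains Ifnar1 and Ifnar2 and the kinases Jak1 and Tyk2, which activate Stat2 and its partners. With Irf9, Stat2 takes part in a complex that binds a DNA element called the interferon-stimulated response element (ISRE). Type II interferon, or interferon gamma, acts through Ifngr1, Ifngr2, Jak1 and Jak2, and its signal reaches genes through the gamma-activated site (GAS). The induced proteins sense or block viruses, attack the vacuoles of intracellular microbes, present peptides on MHC class I and recruit T cells. In the liver, hepatocytes, Kupffer cells and sinusoidal endothelium all respond to interferon.

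Libraries held between 14737578 and 21794811 estimated reads. The 5 hepatocyte markers summed to between 44559 CPM (counts scaled to the library's total) and 117829 CPM in a library, and none was at 0. These sums differed by group. They were 77168 to 85164 CPM in ConvR HF/HS and 111525 to 117829 CPM in GF HF/HS livers. On chow they were 44559 to 80432 CPM in ConvR, 76270 to 92626 CPM in GF and 83242 to 100640 CPM in ConvD livers. Their part in the results was not tested. Libraries ConvR chow 1 and 2 stood apart in acute phase genes, those that the liver makes in inflammation: Saa2, serum amyloid A2, was at 9887, 12793 and 695 CPM in ConvR chow 1, 2 and 3 and between 4.25 and 53.8 CPM in the other libraries. Lcn2, lipocalin 2, was at 1073, 1453 and 75.1 CPM in ConvR chow 1, 2 and 3 and between 1.31 and 20.1 CPM in the others. Calls among the interferon response genes in comparisons that use ConvR chow mice are therefore also given without these libraries where that ends the call. Calls of other genes are given with all libraries only. Whether those calls hold without ConvR chow 1 and 2 is not shown.

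CPM values were scaled between libraries with edgeR's TMM factors. Per length, the interferon response genes were about as abundant in liver as other genes. Their median was 7.54 TPM (transcripts scaled for length and library size), against 7.67 TPM over all genes tested, and 15 of 38 had a median of at least 10 TPM and 14 a median under 5 TPM. Bst2, or tetherin, which holds budding virus at the cell surface, led with a median of 245 TPM and a range of 192 to 352 TPM over the 15 libraries. Iigp1, an immunity-related GTPase that acts on vacuoles of microbes, followed at 180 TPM and Irgm1, a regulator of those GTPases, at 45.3 TPM. The immunoproteasome subunit Psmb8 and the factor Irf7, which drives interferon genes, came next among other families at 33.0 and 26.2 TPM. Ranges of neighbours in this order mostly overlapped, but the range of Bst2 overlapped only that of Iigp1. At the low end stood Oas2, Oas3 and Oas1g, members of the family that makes the oligoadenylates that activate RNase L, with medians of 1.12, 1.04 and 0.99 TPM. Counts of Oas1a and Oas1g, of Ifit3, of the Gbp row pairs and of the immunity-related GTPases may be uncertain where related genes share reads. RSEM divides such reads among them, and how many were shared was not measured.

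**Figure D1:**
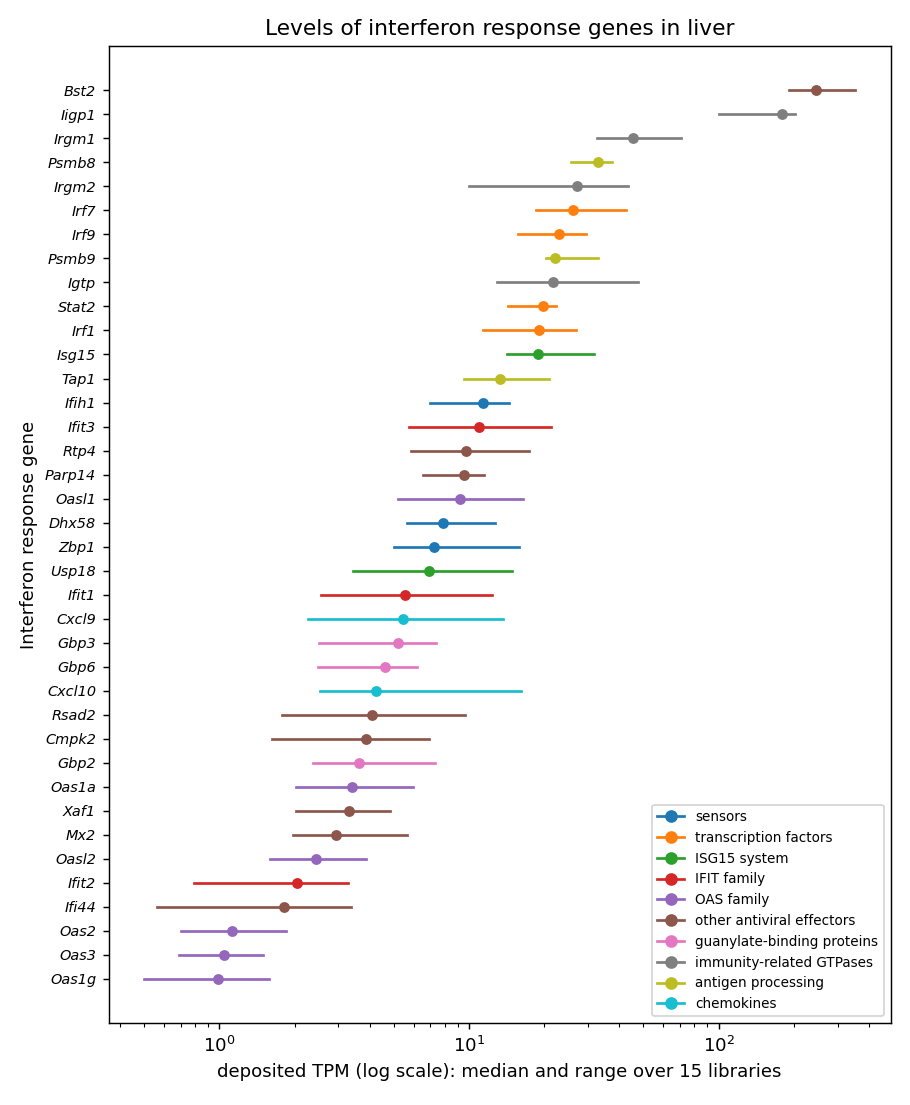
Deposited TPM of the 38 interferon response genes on a log scale, as the median (point) and the range (line) over 15 liver libraries, coloured by role. Bst2 and Iigp1 lie above all other genes, with medians of 245 and 180 TPM, and Oas1g is lowest.

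Interferon elements lay in the start regions of many of these genes. RefSeq windows of 250 bases before the start were at hand for 29 of the 38 genes. The ISRE core, GAAA, any pair of bases and GAAA again, on either strand, lay in 15 of 29 windows (51.7%), against 3.46% of 27025 genes, and the GAS TTCNNNGAA, which reads alike on both strands, in 7 (24.1%), against 8.13%. Both elements lay in 4 (13.8%), against 0.4% of all genes, and 11 windows held neither, among them those of Irf7, Cmpk2, Ifi44, Tap1 and Cxcl9. These shares are descriptions of letters in a window, and the list was drawn from known interferon targets. The stretches below are shown for genes that the comparisons turn on or that represent a family. They are RefSeq sequences of build GRCm38.p6 on the strand of the gene, while the deposited values were counted on the older build mm9, and capitals mark the element. Overlapping copies of the ISRE core run together in Isg15 and Gbp3.
Ifit1, chr19:34640755-34640843, plus strand: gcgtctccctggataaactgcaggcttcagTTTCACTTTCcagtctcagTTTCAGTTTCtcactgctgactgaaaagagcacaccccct
Isg15, chr4:156200845-156200926, minus strand: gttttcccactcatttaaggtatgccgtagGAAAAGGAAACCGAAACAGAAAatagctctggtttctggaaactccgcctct
Rsad2, chr12:26456533-26456602, minus strand: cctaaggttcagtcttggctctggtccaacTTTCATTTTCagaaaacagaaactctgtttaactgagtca
Gbp3, chr3:142559969-142560043, plus strand: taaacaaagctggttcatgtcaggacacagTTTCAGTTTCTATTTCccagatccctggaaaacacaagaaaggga
Igtp, chr11:58199481-58199555, plus strand: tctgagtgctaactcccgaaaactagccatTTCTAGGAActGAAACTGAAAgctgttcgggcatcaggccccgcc
Irf1, chr11:53769894-53769962, plus strand: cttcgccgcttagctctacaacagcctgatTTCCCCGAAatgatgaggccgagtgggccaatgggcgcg
Cxcl10, chr5:92349063-92349132, minus strand: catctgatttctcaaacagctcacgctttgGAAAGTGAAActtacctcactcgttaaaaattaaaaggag
In Ifit1 the cores lie between 104 and 76 bases before the start, in Isg15 between 78 and 57, and in Gbp3 between 45 and 30. Igtp carries a GAS at 45 to 37 bases and an ISRE core at 34 to 25 bases before the start. The window of Irf1 holds a GAS and no ISRE core, and that of Rsad2 a single ISRE core. Psmb9 and Tap1 start 226 bases apart on opposite strands, and Rsad2 and Cmpk2, also on opposite strands, 12763 bases apart.

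The interferons themselves were hardly seen. No read was assigned in any library to Ifnb1, Ifna1, Ifna2, Ifna4, Ifne, Ifnk, Il28a or Il28b, 8 of the 12 ligand and inducer genes listed, where 3 reads, taken as the limit that a count of 0 allows, came to between 0.130 and 0.206 CPM in a library. Ifng, interferon gamma, had estimated counts of 1, 3 and 1 in ConvD chow 1, 2 and 3, 1 in ConvR HF/HS 1 and 2 in GF chow 1, and none in the other 10 libraries.

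Interferon response genes differed most between the 3 mice of the GF chow group. GF chow 3 held the highest value of 15 libraries for 20 of the 38 genes, while 8.27% of all genes tested were highest there. GF chow 1 held the lowest value for 15 of the 38, while 20% of all genes tested were lowest there and 20.6% were highest there. Both shares of all genes were the largest of any library, and GF chow 1 had the fewest estimated reads, 14737578. The median deviation of the 38 genes from their own mean, on the log2 scale, was 0.63 in GF chow 3, -0.16 in GF chow 2 and -0.41 in GF chow 1, and between -0.29 and 0.22 in the other 12 libraries. Fewer cells of a type and less RNA per cell cannot be told apart in whole liver.

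By role, the IFIT family, which binds viral RNA that lacks host cap marks, stood furthest apart in the GF chow mice. Ifit1 was at 14.2, 10.98 and 9.01 CPM in ConvR HF/HS livers, 9.21, 8.83 and 10.1 CPM in GF HF/HS livers, 10.9, 8.45 and 10.5 CPM in ConvD chow livers, 6.05, 5.91 and 7.96 CPM in ConvR chow livers and 4.27, 7.14 and 22.2 CPM in GF chow livers. GF chow 3 was above and GF chow 1 below all other livers, and the values of the ConvR HF/HS livers lay above those of the ConvR chow livers. Ifit3 was at 18.9, 14.6 and 12.6 CPM in ConvR HF/HS livers, 14.6, 13.9 and 16.2 CPM in GF HF/HS livers, 14.5, 12.2 and 13.3 CPM in ConvD chow livers, 8.47, 11.6 and 8.68 CPM in ConvR chow livers and 7.23, 9.71 and 28.9 CPM in GF chow livers. GF chow 3 was again highest and GF chow 1 lowest. The family's median deviation was 1.15 in GF chow 3 and -1.06 in GF chow 1.

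Isg15 is a ubiquitin-like protein that is joined to other proteins, and Usp18 removes it and blocks signalling at the receptor. Isg15 was at 10.8, 8.71 and 9.23 CPM in ConvR HF/HS livers, 7.95, 6.62 and 8.38 CPM in GF HF/HS livers, 8.33, 6.1 and 7.38 CPM in ConvD chow livers, 6.98, 9.04 and 6.996 CPM in ConvR chow livers and 11.4, 8.63 and 15.1 CPM in GF chow livers. Every GF HF/HS liver lay below every GF chow liver. Usp18 was at 9.42, 7.52 and 8.78 CPM in ConvR HF/HS livers, 7.54, 5.94 and 7.68 CPM in GF HF/HS livers, 10.4, 4.88 and 7.43 CPM in ConvD chow livers, 4.67, 5.304 and 4.16 CPM in ConvR chow livers and 7.502, 5.48 and 17.7 CPM in GF chow livers. GF chow 3 stood 1.70 times above the next library. Among the transcription factors, Irf7 peaked in the same liver. Irf7 was at 31.8, 29.8 and 39.2 CPM in ConvR HF/HS livers, 34.4, 26.3 and 30.1 CPM in GF HF/HS livers, 29.1, 24.2 and 33.5 CPM in ConvD chow livers, 26.7, 34.2 and 26.5 CPM in ConvR chow livers and 23.1, 21.9 and 52.7 CPM in GF chow livers. Stat2 was at 49.2, 49.2 and 53.2 CPM in ConvR HF/HS livers, 56.1, 52.7 and 43.95 CPM in GF HF/HS livers, 47.5, 43.02 and 53.6 CPM in ConvD chow livers, 66.5, 76.8 and 57.9 CPM in ConvR chow livers and 40.5, 50.4 and 61.1 CPM in GF chow livers. For Stat2, ConvR chow 1 and 2 were the highest libraries. Irf1 was at 20.4, 17.7 and 19.8 CPM in ConvR HF/HS livers, 26.4, 23.2 and 25.7 CPM in GF HF/HS livers, 16.3, 14.2 and 26.2 CPM in ConvD chow livers, 40.4, 40.5 and 23.7 CPM in ConvR chow livers and 32.1, 27.7 and 38.7 CPM in GF chow livers. Irf1, a factor induced by interferon gamma and inflammation, was high in ConvR chow 1 and 2 and in GF chow livers and low in ConvR HF/HS livers and in ConvD chow 1 and 2.

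The antiviral effectors Rsad2, or viperin, which makes a nucleotide that ends viral RNA chains, and its neighbour Cmpk2, a mitochondrial nucleotide kinase, had like patterns. Rsad2 was at 19.7, 15.8 and 12.2 CPM in ConvR HF/HS livers, 12.4, 8.88 and 12.6 CPM in GF HF/HS livers, 13, 9.22 and 9.15 CPM in ConvD chow livers, 5.44, 5.24 and 9.23 CPM in ConvR chow livers and 7.85, 7.598 and 25.2 CPM in GF chow livers. Cmpk2 was at 12.2, 9.35 and 8.87 CPM in ConvR HF/HS livers, 9.41, 5.41 and 7.86 CPM in GF HF/HS livers, 8.87, 7.18 and 8.32 CPM in ConvD chow livers, 3.85, 4.04 and 5.43 CPM in ConvR chow livers and 4.75, 5.37 and 14.4 CPM in GF chow livers. Both were highest in GF chow 3 and were higher in every ConvR HF/HS liver than in every ConvR chow liver. Mx2 was at 3.89, 2.67 and 3.37 CPM in ConvR HF/HS livers, 4.56, 3.73 and 4.95 CPM in GF HF/HS livers, 4.84, 3.43 and 3.27 CPM in ConvD chow livers, 8.74, 8.499 and 3.32 CPM in ConvR chow livers and 5.71, 4.17 and 9.28 CPM in GF chow livers. For Mx2, a gene of the dynamin-like GTPase family, the highest values were those of GF chow 3 and ConvR chow 1 and 2. The transcript of the Mx2 row was not found in RefSeq GRCm38.p6, so its identity rests on the deposited name. Ifi44 was at 5.4, 4.502 and 5.55 CPM in ConvR HF/HS livers, 5.47, 4.41 and 4.37 CPM in GF HF/HS livers, 2.26, 3.07 and 3.22 CPM in ConvD chow livers, 3.13, 2.05 and 1.93 CPM in ConvR chow livers and 1.03, 1.71 and 5.46 CPM in GF chow livers. For Ifi44, the HF/HS livers of both kinds and GF chow 3 lay above all others.

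Another liver, ConvD chow 3, held the highest values of Gbp2, Igtp, Irgm2 and Cxcl9. Other genes of their families peaked elsewhere, Gbp3 in ConvR HF/HS 1, the Gbp6 row in GF HF/HS 3, Iigp1 and Irgm1 in GF chow 3 and Cxcl10 in GF chow 1. Gbp2 was at 5.57, 6.98 and 5.05 CPM in ConvR HF/HS livers, 6.38, 6.15 and 6.35 CPM in GF HF/HS livers, 5.32, 4.65 and 10.9 CPM in ConvD chow livers, 4.12, 5.79 and 4.704 CPM in ConvR chow livers and 6.47, 5.14 and 4.59 CPM in GF chow livers. Gbp2, a guanylate-binding protein that attacks vacuoles of microbes, was 1.56 times higher in ConvD chow 3 than in the next library. Gbp3 was at 10.7, 7.87 and 9.51 CPM in ConvR HF/HS livers, 9.01, 8.93 and 8.73 CPM in GF HF/HS livers, 5.48, 5.47 and 9.76 CPM in ConvD chow livers, 5.99, 5.91 and 4.58 CPM in ConvR chow livers and 5.23, 5.94 and 9.57 CPM in GF chow livers. Igtp was at 32.1, 26.9 and 25.3 CPM in ConvR HF/HS livers, 26.6, 27.7 and 30.6 CPM in GF HF/HS livers, 27.1, 23.5 and 57.9 CPM in ConvD chow livers, 21.3, 31.8 and 23.7 CPM in ConvR chow livers and 16.5, 29.1 and 52.8 CPM in GF chow livers. Igtp, an immunity-related GTPase, was high in ConvD chow 3 and GF chow 3 only. Mpa2l, outside the list but the present-day Gbp6, was at 29.9, 22.2 and 51.8 CPM in ConvD chow livers and at 15.1, 18.3 and 47.8 CPM in GF chow livers. Cxcl9 was at 12.4, 20.2 and 9.37 CPM in ConvR HF/HS livers, 10.9, 13.2 and 12.2 CPM in GF HF/HS livers, 7.15, 9.81 and 23.5 CPM in ConvD chow livers, 4.67, 7.41 and 8.74 CPM in ConvR chow livers and 5.37, 4.97 and 7.78 CPM in GF chow livers. Cxcl10 was at 3.59, 5.05 and 2.55 CPM in ConvR HF/HS livers, 2.13, 2.89 and 2.27 CPM in GF HF/HS livers, 2.36, 2.26 and 4.88 CPM in ConvD chow livers, 1.81, 2.53 and 1.99 CPM in ConvR chow livers and 10.3, 2.799 and 3.87 CPM in GF chow livers. Cxcl9 and Cxcl10 are chemokines that draw T cells, and Cxcl10 was highest in GF chow 1, where it was 2.05 times the next library. In ConvD chow 3 MHC class II genes were also high: H2-Aa was at 23.3, 22.3 and 67.4 CPM and Cd74 at 65.6, 64.2 and 167 CPM in ConvD chow 1, 2 and 3. The T and NK cell markers, 15 of 16 of them in the tables, summed to 10.1 CPM in ConvD chow 3 and to between 5.24 and 9.43 CPM in the other libraries, and their part in these values was not tested. The 8 of 9 neutrophil markers in the tables summed to only 3.00 CPM in ConvD chow 3 and 1.35 CPM in GF chow 3.

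Iigp1 and the antigen processing genes had narrower ranges. Iigp1 was at 301, 255 and 299 CPM in ConvR HF/HS livers, 338, 367 and 363 CPM in GF HF/HS livers, 342, 357 and 369 CPM in ConvD chow livers, 314, 312 and 283 CPM in ConvR chow livers and 195, 317 and 384 CPM in GF chow livers. Apart from GF chow 1, all livers lay within a range of 255 to 384 CPM. Psmb8 was at 24.3, 20.9 and 22.7 CPM in ConvR HF/HS livers, 24.4, 23.3 and 25.3 CPM in GF HF/HS livers, 18.1, 18.8 and 26.5 CPM in ConvD chow livers, 28.2, 30.4 and 22.3 CPM in ConvR chow livers and 24.1, 23.3 and 27.5 CPM in GF chow livers. Tap1 was at 33.96, 30.6 and 27.3 CPM in ConvR HF/HS livers, 26.8, 25.5 and 25.1 CPM in GF HF/HS livers, 20.96, 17.9 and 25.4 CPM in ConvD chow livers, 20.8, 23.5 and 19.6 CPM in ConvR chow livers and 23.9, 22.7 and 31.2 CPM in GF chow livers. Tap1, the peptide transporter of MHC class I loading, was highest in ConvR HF/HS 1 and lowest in ConvD chow 2.

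**Figure D2:**
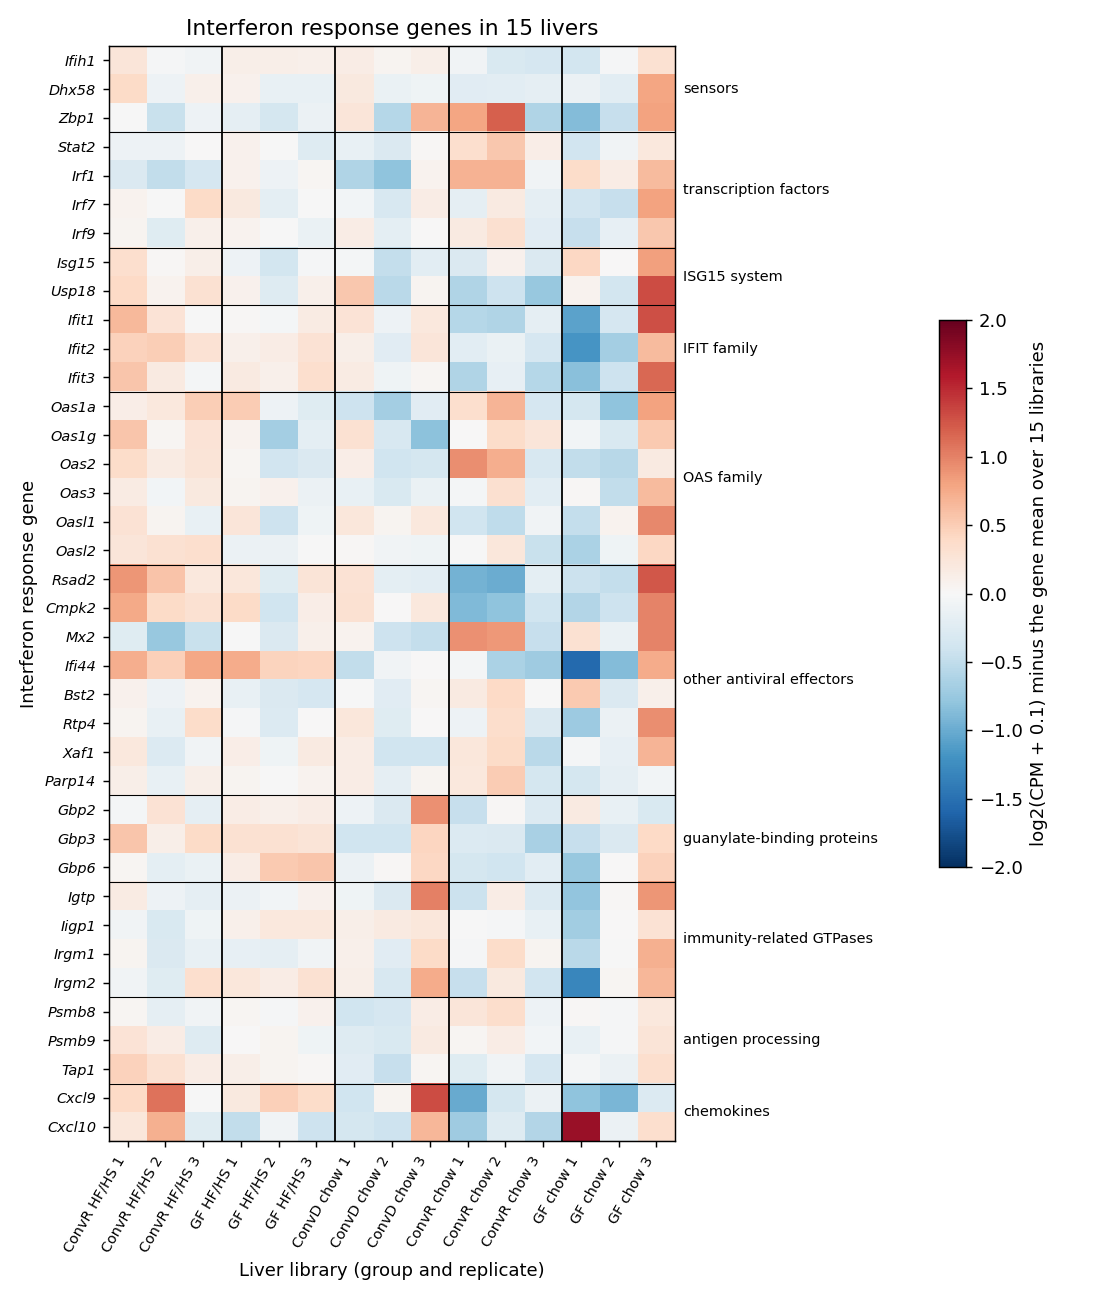
Deviation of each interferon response gene (rows, by role) from its own mean over 15 liver libraries (columns, by group), on the log2 scale of CPM. GF chow 3 is high and GF chow 1 low in most rows, with median deviations of 0.63 and -0.41, and ConvD chow 3 is highest for Gbp2, Igtp, Irgm2 and Cxcl9.

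The spread within a group was widest in GF chow livers, for these genes and for all genes tested. The ratio of the highest to the lowest of 3 mice had a median over the 38 genes of 1.28 in ConvR HF/HS, 1.17 in GF HF/HS, 1.40 in ConvD chow, 1.37 in ConvR chow and 2.13 in GF chow livers. The same medians over all genes tested were 1.204, 1.15, 1.16, 1.25 and 1.33. In GF chow livers 20 of 38 genes spread over 2-fold, against 10.9% of all genes tested, with Ifit1 widest at 5.11. In GF HF/HS livers none of the 38 did, against 3.18% of all genes tested. These ratios are given as a description, with no test.

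**Figure D3:**
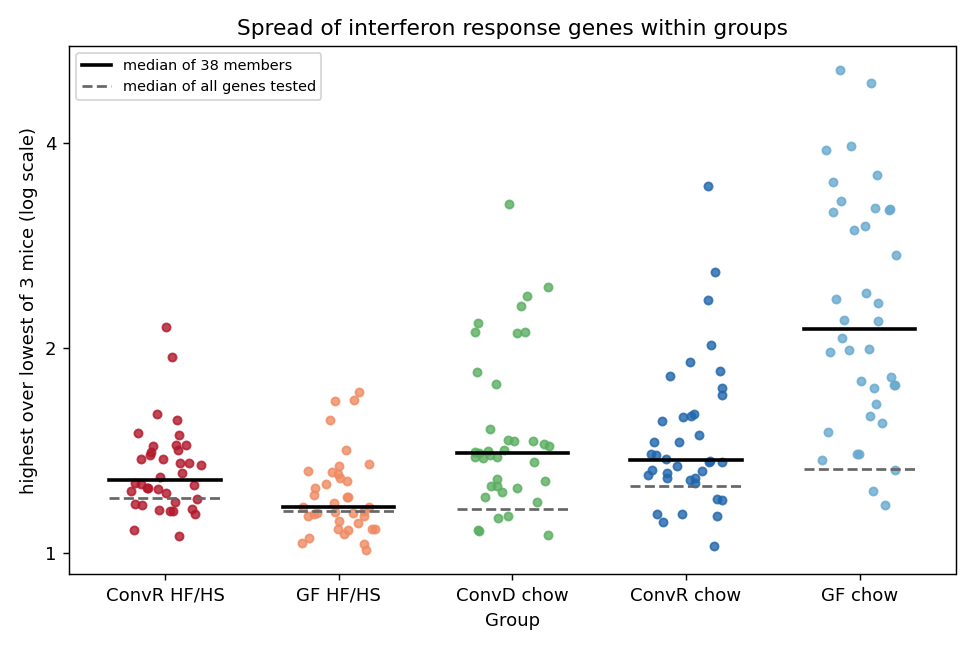
Ratio of the highest to the lowest of 3 mice (log scale) for each of the 38 interferon response genes (points) in each group, with their median (solid line) and that of all genes tested (dashed line). The GF chow median is 2.13, and those of the other groups lie between 1.17 and 1.40.

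Against this spread, 9 comparisons were tested with edgeR's quasi-likelihood test. A gene was called where its Benjamini-Hochberg adjusted p over all 12377 genes was below 0.05. Comparisons that share a group share its libraries. Scaling mattered: on deposited TPM the fold changes of all genes had a log2 median not near 0 but of 0.30 for ConvR HF/HS against ConvR chow, 0.27 for the interaction, 0.21 for ConvD against ConvR chow, 0.16 both for ConvR against GF on HF/HS and for HF/HS against chow over both kinds of mice, and -0.10 for ConvR against GF on chow. Of all called genes, 46.4% were higher in ConvR HF/HS than in ConvR chow livers, but 95.6% on TPM. The same shares were 45.5% and 90.7% for HF/HS against chow over both kinds of mice, 42.9% and 64.8% for HF/HS against chow in GF mice, 54.1% and 17.1% for ConvR against GF on chow, 54.5% and 93.8% for ConvR against GF on HF/HS, 49.3% and 66.3% for ConvR against GF over both diets, 40.2% and 88.5% for ConvD against GF on chow, and 39.9% and 94.6% for ConvD against ConvR on chow.

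**Figure D4:**
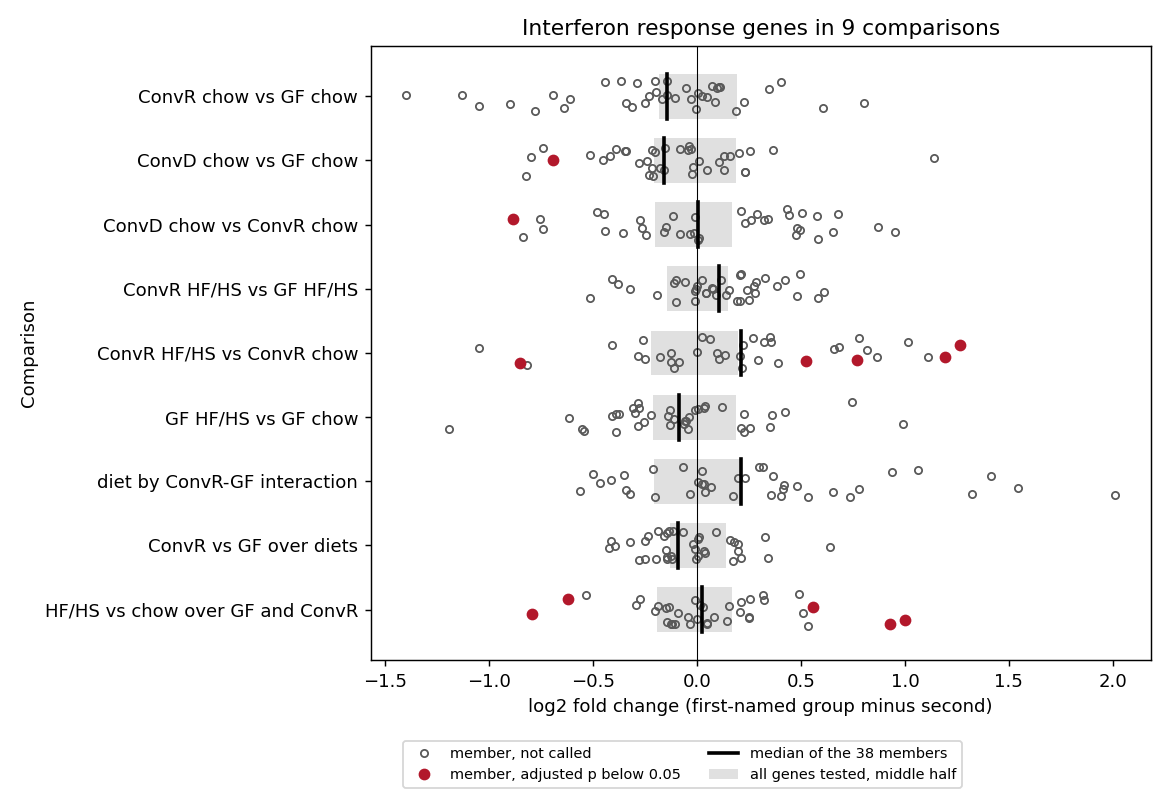
Log2 fold changes of the 38 interferon response genes in 9 comparisons (first-named group minus second), with called genes in red, the median of the 38 as a black line and the lower to upper quartile of all genes tested as a grey box. Medians lie between -0.16 and 0.21, and called genes appear in 4 comparisons.

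HF/HS was compared with chow in ConvR mice to ask how diet acts in colonized livers. Here 4 of 38 interferon response genes rose and 1 fell, a share close to that of all genes tested, of which 14.6% were called, 6.75% higher and 7.8% lower. Rsad2 averaged 15.9 ± 3.71 CPM in ConvR HF/HS livers and 6.64 ± 2.24 CPM in ConvR chow livers (SD, n = 3 each), a log2 fold change of 1.26 ± 0.40 (SE, edgeR adjusted p = 0.0466). Cmpk2 averaged 10.1 ± 1.81 CPM in ConvR HF/HS livers and 4.44 ± 0.86 CPM in ConvR chow livers (log2 fold change 1.195 ± 0.35, edgeR adjusted p = 0.0329). Gbp3 rose by 0.77 ± 0.24 (adjusted p = 0.0492) and Tap1 by 0.52 ± 0.14 (adjusted p = 0.0223). Irf1 fell, with 19.3 ± 1.43 CPM in ConvR HF/HS livers and 34.9 ± 9.66 CPM in ConvR chow livers (log2 fold change -0.85 ± 0.22, edgeR adjusted p = 0.0197). For each of these 5 genes the libraries of the groups did not overlap.

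No other gene of the 38 passed the test in ConvR mice. The median of the 38 was 0.21, against -0.02 over all genes tested, and 25 of 38 fold changes were positive. CPM ranges did not overlap for 17 of 38, 15 of them higher in ConvR HF/HS livers, where 32.3% of all genes tested had ranges that did not overlap. Mx2, at a log2 fold change of -1.05, and Stat2, at -0.41, had adjusted p of 0.0531 and 0.0722. On deposited TPM 19 of 38 were called, all higher, and the median of the 38 lay 0.22 above that of all genes, against 0.23 on counts. The acute phase and neutrophil genes moved with this comparison: 27 of 29 acute phase genes and 4 of 4 tested neutrophil markers fell, and the neutrophil markers summed to between 1.63 and 2.68 CPM in ConvR HF/HS livers, with Mpo at 0, and to between 5.37 and 54.8 CPM in ConvR chow livers. The 7 endothelial markers, 3 of which rose, summed to between 286 and 337 CPM in ConvR HF/HS livers and to between 242 and 281 CPM in ConvR chow livers. The part of these cell types in the result was not tested.

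Most calls ended without single libraries. Without ConvR chow 1 or without ConvR HF/HS 2, none of the 38 was called. Without ConvR chow 2 only Tap1 was, and without ConvR HF/HS 1 only Irf1 was. Without ConvR chow 3 the called genes were Rsad2, Cmpk2, Irf1, Mx2 and Stat2, the last 3 lower. Adjusted p ran from 0.1001 to 0.151 for Rsad2 and from 0.0644 to 0.111 for Cmpk2 when any of these 4 was left out. The call of Tap1 ended without ConvR chow 1 or 3 or ConvR HF/HS 1 or 2 (adjusted p 0.0578 to 0.0863), that of Gbp3 without any 1 of the 6 libraries (0.0611 to 0.142), and that of Irf1 without ConvR chow 1 or 2 or ConvR HF/HS 2 (0.0797 to 0.0833). With ConvR chow 1 and 2 both left out, no gene was called, the median of the 38 was 0.40, and the fold change of Irf1 was -0.30 (adjusted p = 0.584).

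**Figure D5:**
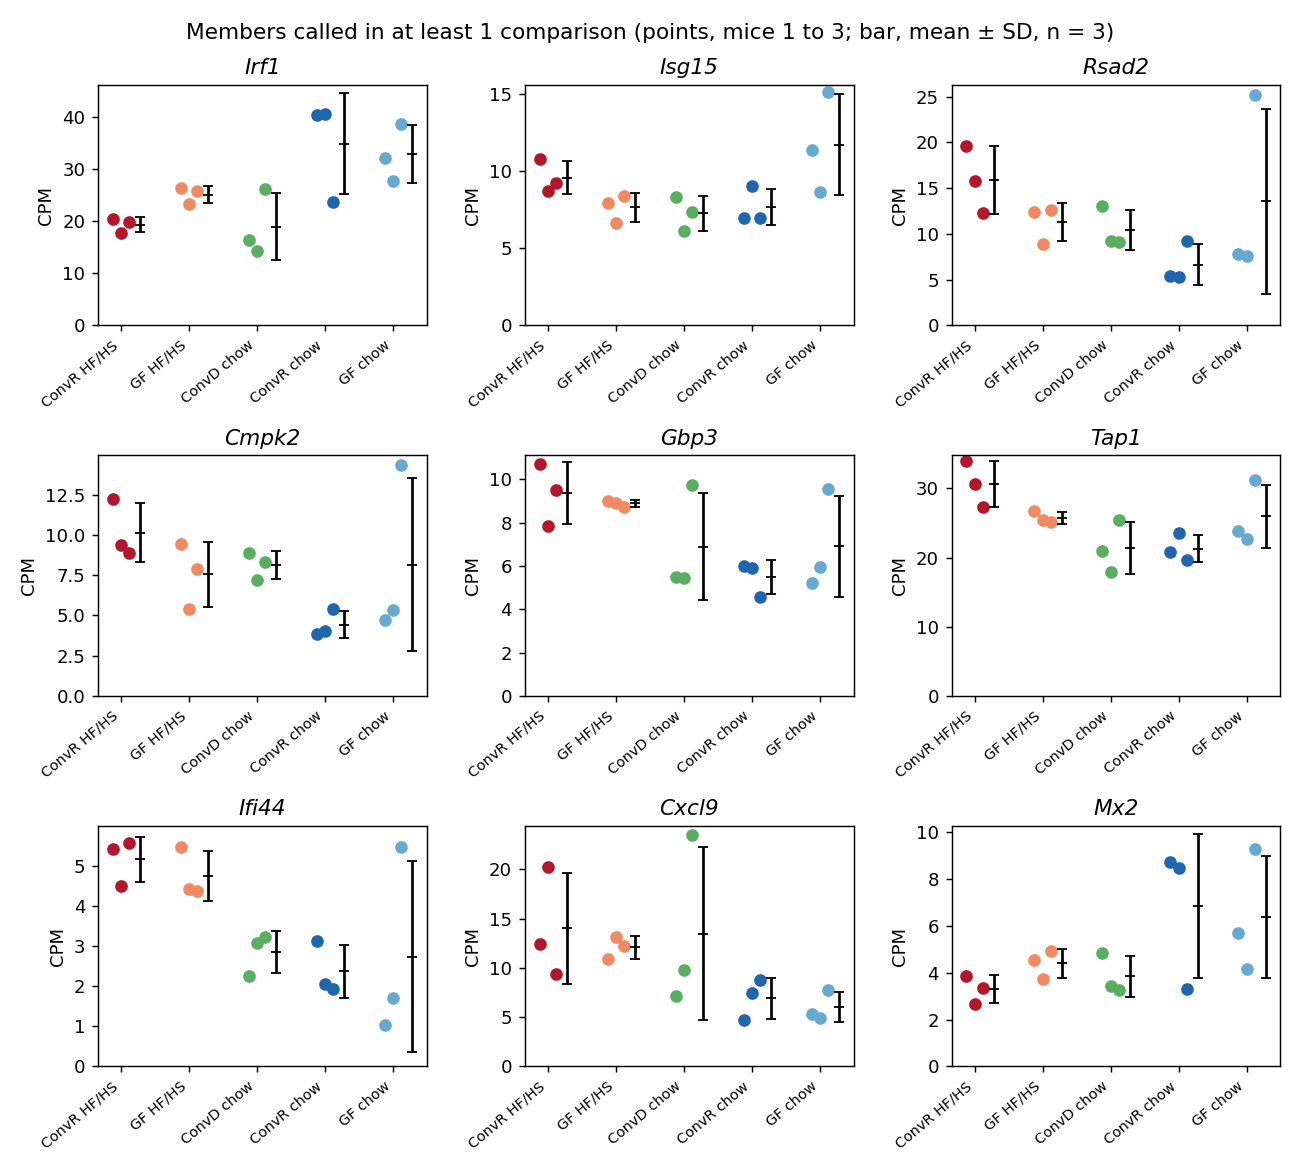
CPM of the 9 interferon response genes called in at least 1 comparison, for each mouse (points) with the mean ± SD of each group (bars, n = 3), on axes that start at 0. Rsad2, Cmpk2, Gbp3 and Tap1 are higher in all 3 ConvR HF/HS livers than in all 3 ConvR chow livers, and single GF chow, ConvD chow and ConvR chow livers widen the bars.

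The diets were also compared over GF and ConvR mice together, 6 livers a side. In that comparison 3 of 38 genes rose and 2 fell, below the 25.1% of all genes tested that were called, 11.4% higher and 13.7% lower. Cxcl9 averaged 13.1 ± 3.77 CPM in HF/HS livers and 6.49 ± 1.70 CPM in chow livers (SD, n = 6 each; log2 fold change 1.00 ± 0.28, edgeR adjusted p = 0.0180), and it was the 1 gene of the 38 whose values did not overlap, against 8.39% of all genes tested. In the ConvD chow livers, which were outside this comparison, Cxcl9 was at 7.15, 9.81 and 23.5 CPM. Ifi44 rose by 0.93 ± 0.29 (adjusted p = 0.0287) and Gbp3 by 0.56 ± 0.17 (adjusted p = 0.0289). Irf1 had a log2 fold change of -0.62 ± 0.16 (adjusted p = 0.0107) and Mx2 one of -0.80 ± 0.24 (adjusted p = 0.0262). Over the 38 genes the median was 0.02, against -0.01 over all genes tested. Of 7 endothelial markers, 5 were called higher on HF/HS. Clec4g, another of the 7, had small negative fold changes on HF/HS in ConvR mice (-0.0608) and in GF mice (-0.000573), neither called. In the comparison over both kinds of mice, 4 of 4 tested neutrophil markers and 20 of 29 acute phase genes were called lower. The part of these cell types and genes was not tested.

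GF chow 3 moved these counts more than any other library. Without it 11 of 38 genes rose and 1 fell, and the median of the 38 was 0.21. Ifit1, Ifit2 and Ifit3 then had log2 fold changes of 0.74, 0.89 and 0.75 (edgeR adjusted p = 0.00448, 0.000509 and 0.00145), Rsad2 one of 0.91 and Cmpk2 one of 0.89, while the fold change of Mx2 was -0.60 with an adjusted p of 0.0688. Irf1 was called without any 1 of the 12 libraries and Cxcl9 too, but both calls ended with ConvR chow 1 and 2 left out together (adjusted p = 0.175 and 0.127), when Parp14 alone was called, higher on HF/HS (0.31, adjusted p = 0.0468). The call of Mx2 also ended without ConvR chow 1 or 2, GF HF/HS 2 or ConvR HF/HS 2, that of Ifi44 without GF chow 2, ConvR chow 2 or 3, GF HF/HS 1 or ConvR HF/HS 1 or 3, and that of Gbp3 without any 1 of 8 libraries, with adjusted p of 0.0502 to 0.0688. Those 8 were GF chow 1 and 2, ConvR chow 3, all 3 GF HF/HS libraries and ConvR HF/HS 1 and 3. On TPM, 13 of the 38 were called, all higher on HF/HS, and the fold changes of Irf1 and Mx2 were -0.35 and -0.38 (limma adjusted p = 0.0562 and 0.0996).

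In GF mice alone, none of the 38 genes was called between diets by edgeR, where 9.55% of all genes tested were called. An unadjusted p below 0.05 was found for 4 of 38, ranges of 4 of 38 did not overlap, against 31.5% of all genes tested, and the DESeq2 Wald test called Isg15 and Cxcl10, both lower. Isg15 was nearest, with 7.65 ± 0.92 CPM in GF HF/HS livers and 11.7 ± 3.27 CPM in GF chow livers (log2 fold change -0.62 ± 0.19, edgeR adjusted p = 0.0546). Cxcl10 had a fold change of -1.20 ± 0.44 (adjusted p = 0.0975) and Cxcl9 one of 0.99 ± 0.40 (adjusted p = 0.128). Over the 38 genes the median was -0.09, and 0.29 without GF chow 3, when Ifi44, Ifit2, Ifit3 and Gbp6 were called higher in GF HF/HS livers. Without GF chow 2 instead, Isg15, Cxcl10 and Bst2 were called lower, and with the compared groups fitted alone Cxcl9 was called higher.

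ConvR was compared with GF on chow to ask what a lifelong microbiota changes in the liver, and none of the 38 genes was called, against 4.72% of all genes tested. An unadjusted p below 0.05 was found for 8 of 38, and 2 of 38 had ranges that did not overlap, against 19.6% of all genes tested. The nearest were Isg15, at 7.67 ± 1.18 CPM in ConvR chow livers and 11.7 ± 3.27 CPM in GF chow livers (log2 fold change -0.61 ± 0.19, edgeR adjusted p = 0.0761), Usp18 (-1.13 ± 0.36, adjusted p = 0.0807) and Cxcl10 (-1.40 ± 0.45, adjusted p = 0.0820). The DESeq2 Wald test called these 3 genes lower in ConvR livers. The median of the 38 was -0.14, but 0.21 without GF chow 3, and then Stat2 was called higher in ConvR chow livers (0.56, adjusted p = 0.0461). Without ConvR chow 3, which had the least acute phase signal of its group, Oas2, Parp14 and Stat2 were called higher in ConvR chow livers, at log2 fold changes of 1.10, 0.55 and 0.50, while without GF chow 2 Isg15, Usp18 and Cxcl10 were called lower. In the same comparison 21 of 29 acute phase genes and 2 of 4 tested neutrophil markers were called higher in ConvR chow livers.

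On HF/HS, ConvR and GF livers differed in none of the 38 genes by edgeR or by the DESeq2 Wald test, against 1.62% of all genes tested with edgeR, and 1 of 38 had an unadjusted p below 0.05. Gbp6, at 14.2 ± 1.25 CPM in ConvR HF/HS livers and 20.2 ± 3.03 CPM in GF HF/HS livers, had the smallest p (log2 fold change -0.51 ± 0.22, edgeR adjusted p = 0.288). Iigp1 (-0.32 ± 0.17) and Oas1g (0.58 ± 0.32) had adjusted p of 0.412 and 0.421. Ranges of 9 of 38 did not overlap, against 27.4% of all genes tested. The median of the 38 was 0.10, and no left-out library gave a call. The microbiota difference was not shown to depend on diet: of the interaction terms none was called among the 38 or among all genes tested (0%) by edgeR, and the DESeq2 Wald test called none of the 38. An unadjusted p below 0.05 was found for 6 of 38, led by Isg15 (0.94 ± 0.27, adjusted p = 0.215), Cxcl10 (2.01 ± 0.63, adjusted p = 0.240) and Usp18 (1.42 ± 0.50, adjusted p = 0.290). The median interaction of 0.21 was -0.19 without GF chow 3, and on TPM the interactions of Cxcl10, Isg15, Tap1 and Usp18 were called.

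Over both diets none of the 38 genes differed between ConvR and GF livers by edgeR, against 8.39% of all genes tested, and 2 of 38 had an unadjusted p below 0.05. Ranges of 0 of 38 did not overlap over both diets, against 2.17% of all genes tested. Oas2 averaged 3.55 ± 1.08 CPM in ConvR livers and 2.25 ± 0.50 CPM in GF livers (SD, n = 6 each; log2 fold change 0.64 ± 0.21, edgeR adjusted p = 0.0695) and was the 1 gene that the DESeq2 Wald test called. Gbp6 (-0.41 ± 0.16) and Stat2 (0.20 ± 0.10) had adjusted p of 0.126 and 0.246. Oas2 was called higher without GF chow 3 (0.79, adjusted p = 0.0398) or without ConvR chow 3 (0.79, adjusted p = 0.00675). With GF chow 3 left out Ifit2 was called higher too (0.47, adjusted p = 0.0386), with ConvR chow 3 left out Parp14 (0.27, adjusted p = 0.0469), and with GF chow 1 left out Gbp6 (-0.53, adjusted p = 0.0161) and Iigp1 (-0.26, adjusted p = 0.0396) were called lower.

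ConvD mice were compared with GF and ConvR mice on chow to ask what colonization of the adult changes. Against GF chow, Isg15 fell, the 1 call among the 38, where 5.59% of all genes tested were called and 3.34% were called lower. It averaged 7.27 ± 1.12 CPM in ConvD chow livers and 11.7 ± 3.27 CPM in GF chow livers (log2 fold change -0.69 ± 0.19, edgeR adjusted p = 0.0483), with no overlap, as for 2 of the 38 and 28.8% of all genes tested. That call ended in every fit without 1 library except that without GF chow 2, with adjusted p of 0.0883 to 0.169. It also ended with no filter on low counts, with the length trend removed, with the compared groups fitted alone and on TPM. Irf1, with 18.9 ± 6.43 CPM in ConvD chow livers and 32.8 ± 5.55 CPM in GF chow livers, had an adjusted p of 0.0506 and was called without ConvD chow 3 or GF chow 2 (adjusted p = 0.0297 and 0.0400), and Cxcl9 a log2 fold change of 1.14 ± 0.40 (adjusted p = 0.0991). The median of the 38 was -0.16, and 0.29 without GF chow 3, when Ifi44 (1.03) and Ifit2 (0.98) were called higher in ConvD chow livers.

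Against ConvR chow, Irf1 fell, again the 1 call among the 38, where 5.5% of all genes tested were called and 3.3% were called lower. It averaged 18.9 ± 6.43 CPM in ConvD chow livers and 34.9 ± 9.66 CPM in ConvR chow livers (log2 fold change -0.89 ± 0.22, edgeR adjusted p = 0.0369), with an overlap between ConvD chow 3 at 26.2 CPM and ConvR chow 3 at 23.7 CPM. The call ended without ConvR chow 1 or 2 or ConvD chow 1 or 2 (adjusted p 0.124 to 0.164) and with ConvR chow 1 and 2 both left out, when the fold change was -0.33. Without ConvR chow 3, 5 genes were called lower in ConvD chow livers, Irf1, Mx2, Oas2, Psmb8 and Stat2, and without ConvD chow 3 Irf1 and Psmb8 were. The median of the 38 was 0.01, and 9 of 38 had ranges that did not overlap, among them Ifit1, Ifit3 and Ifih1, the RNA sensor MDA5, all higher in ConvD chow livers, where 30.2% of all genes tested did not overlap. In the same comparison 21 of 29 acute phase genes and 4 of 4 tested neutrophil markers were called lower in ConvD chow livers.

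On HF/HS against chow over GF and ConvR mice, where 25.1% of all genes tested were called, calls among the genes upstream numbered 1 of 8 receptors and kinases, 3 of 9 further STAT and IRF factors, 3 of 10 feedback inhibitors and 3 of 18 nucleic acid sensors and adaptors. In ConvR against GF livers over both diets, where the share of all genes was 8.39%, the same lists had 1, 1, 1 and 4 calls. Of 8 receptor and kinase genes tested, Ifngr2 was higher in ConvR than in GF livers over both diets (log2 fold change 0.37 ± 0.11, edgeR adjusted p = 0.0494) and Jak2 was higher on HF/HS over GF and ConvR mice (0.29 ± 0.07, adjusted p = 0.00570) and in GF mice alone (0.33 ± 0.09, adjusted p = 0.0379). Of 9 further STAT and IRF factors, Irf5 was lower in ConvR HF/HS than in ConvR chow livers (-1.16 ± 0.26, adjusted p = 0.00941), and Irf3, which switches on the interferon beta gene, was lower on HF/HS over both kinds of mice (-0.36 ± 0.08, adjusted p = 0.00455). Of 10 feedback inhibitors, Socs3, which cytokines of the acute phase induce, showed the largest fold change, -4.21 ± 0.81 in ConvR HF/HS against ConvR chow livers (adjusted p = 0.00404). Socs3 was at 2.64, 3.07 and 3.46 CPM in ConvR HF/HS livers and at 78.3, 82.3 and 8.81 CPM in ConvR chow livers, and was also high in GF chow 1, at 47.6 CPM. Of 18 nucleic acid sensors and adaptors, 4 were higher in ConvR than in GF livers over both diets: Mavs, the adaptor of the RNA sensors (0.25 ± 0.07, adjusted p = 0.0423), the DNA pathway adaptor Tmem173 (0.56 ± 0.16, adjusted p = 0.0414), the RNA receptor Tlr7 (0.69 ± 0.19, adjusted p = 0.0375) and the adaptor Ticam1 (0.50 ± 0.15, adjusted p = 0.0495). None of the 18 was called lower in that comparison. The log2 fold changes of Mavs were 0.50 on chow and -0.0055 on HF/HS, and those of Ticam1 0.84 and 0.17. Those of Tmem173 were 0.69 and 0.43, of Tlr7 0.83 and 0.55, and of Ifngr2 0.54 and 0.20. On chow only Mavs and Ticam1 of these were called (edgeR adjusted p = 0.0194 and 0.0391), and on HF/HS none was. The interactions of these genes were not called. The chow values include ConvR chow 1 and 2, and calls without these libraries are not given for these lists. Over both diets 1 of 13 tested Kupffer cell markers, Cd68 (0.52 ± 0.13, adjusted p = 0.0302), was called higher in ConvR than in GF livers. That share is near the 8.39% of all genes tested, and C6, not called, had a negative fold change (-0.29). Of 8 tested monocyte and recruited macrophage markers, 2 were called higher in ConvR livers, Ccr2 (1.21 ± 0.31, adjusted p = 0.0332) and Cx3cr1 (1.15 ± 0.30, adjusted p = 0.0354). The monocyte markers summed to between 61.04 and 71.9 CPM in ConvR HF/HS livers and to between 55.1 and 60.3 CPM in GF HF/HS livers. On chow the sums were between 81.2 and 103.1 CPM in ConvR livers and between 57.6 and 109.6 CPM in GF livers, none of these markers was at 0 throughout a group, and their part in the result was not tested.

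In a longer list of 61 tested interferon-induced genes outside the 38, 3 rose and 3 fell in ConvR HF/HS against ConvR chow livers, where 14.6% of all genes tested were called, and the median was -0.03. Tor3a (1.19 ± 0.25, adjusted p = 0.00606) and Samd9l, an antiviral protein (0.95 ± 0.22, adjusted p = 0.0115), rose, while Ifi47, an immunity-related GTPase (-1.11 ± 0.27, adjusted p = 0.0149), and Ifitm2, which blocks virus entry (-1.09 ± 0.27, adjusted p = 0.0164), fell. Over both kinds of mice, 9 of the 61 rose on HF/HS and 7 fell, with a median of 0.01, against 11.4% of all genes tested called higher and 13.7% called lower. In GF mice 3 rose and 5 fell, where 9.55% of all genes tested were called. Between ConvR and GF livers over both diets 3 rose, Ifi27l2b (1.36 ± 0.29, adjusted p = 0.0142), Ifitm2 (0.73 ± 0.19, adjusted p = 0.0344) and Ifi27l2a (0.81 ± 0.22, adjusted p = 0.0387), and none fell. These 3 of 61 compare with 8.39% of all genes tested that were called there. On chow alone Ifitm2 and Ly6e were higher in ConvR than in GF livers, where 4.72% of all genes tested were called. On HF/HS Tor3a alone was higher, where 1.62% of all genes tested were called. In ConvD chow livers Ogfr was lower than in GF chow livers, where 5.59% of all genes tested were called. Gbp10 was higher and Ifi27l2b lower in ConvD chow than in ConvR chow livers, where 5.5% of all genes tested were called.

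Of 19 remaining MHC class I genes tested, 3 fell on HF/HS in ConvR mice and none rose, a share close to the 14.6% of all genes tested that were called. They were the immunoproteasome subunit Psmb10 (-0.64 ± 0.12, adjusted p = 0.00358) and the proteasome activator subunits Psme1 (-0.47 ± 0.10, adjusted p = 0.00633) and Psme2 (-0.43 ± 0.10, adjusted p = 0.00875). In GF mice Psme1 (-0.43 ± 0.10, adjusted p = 0.0189) and Psme2 (-0.41 ± 0.10, adjusted p = 0.0200) fell as well. Psme1 was at 50.0, 53.9 and 49.6 CPM in ConvR HF/HS livers, at 55.1, 62.1 and 55.8 CPM in GF HF/HS livers, at 65.3, 76.2 and 71.2 CPM in ConvR chow livers and at 81.1, 67.2 and 84.4 CPM in GF chow livers, so that neither HF/HS group overlapped its chow group. The constitutive subunit Psmb5, which the immunoproteasome subunit Psmb8 replaces, was lower on HF/HS over both kinds of mice (-0.45 ± 0.08, adjusted p = 0.00112). The class I heavy chain H2-K1 and B2m, its light chain, were called in none of the 9 comparisons. Another class I gene, H2-T23, was lower in ConvR than in GF livers over both diets (-0.28 ± 0.06, edgeR adjusted p = 0.0174). It was also lower in ConvD chow than in GF chow livers (-0.49 ± 0.09, adjusted p = 0.0111). Psmb10 was lower in ConvD chow than in ConvR chow livers (-0.44 ± 0.12, adjusted p = 0.0483). Of all genes tested, 8.39%, 5.59% and 5.5% were called in these comparisons, in that order. H2-K1 ranged from 881 to 1166 CPM over the 15 libraries, and B2m from 621 CPM in GF chow 1 to 1464 CPM in ConvD chow 3. No gene of the 8 tested MHC class II genes was called in any of the 9 comparisons.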

How the data were processed

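Liver mRNA of 15 mice was sequenced, 1 library a mouse, from stranded TruSeq libraries per the labels' protocols. The deposited table of each library gives, per gene, an RSEM expected count (an estimated count that need not be whole), TPM, FPKM and length; Bowtie2, RSEM 1.2.23 and mm9 are named in the submitters' processing notes. FPKM, as deposited, was not used.

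Expected counts were rounded and fitted in edgeR 4.0.16 (R 4.3.3): TMM scaling, filterByExpr (minimum count 10), a mean per group over all 15 libraries with 10 residual degrees of freedom, quasi-likelihood tests and Benjamini-Hochberg adjustment over all 12377 genes, called below 0.05. Errors of fold changes are SE. Of 20325 genes listed, 4014 had no count. Libraries held 14737578 to 21794811 estimated counts, and limits from a count of 0 cover counting error only. Median deviations use log2 CPM with a prior count of 2.

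Alternatives were DESeq2 1.42.0 size factors or its Wald test, no filter, limma 3.58.1 trend on log2(TPM + 1) from the deposited TPM, removal of a length trend by lowess with span 0.5, the compared groups alone, a replicate block, each library left out, and ConvR chow 1 and 2 both left out.

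The members and lists were chosen with earlier results of these data known, so that no count over them is independent support. Named were up to 6 called genes in each direction per comparison, else the 3 of smallest p, 10 genes followed throughout and up to 4 called genes of other lists. Other genes, such as those called when a library is left out, were named after their values were seen. The mice are separate animals, but p-values measure only the spread between mice within groups of 3, pooled over the 5 groups. The wide spread of GF chow livers therefore also enters comparisons that do not use them. Promoters and transcript names came from RefSeq GRCm38.p6, whose coordinates were not joined to the mm9 values. Scripts were tested on simulated data.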

Additional observations from a re-analysis of the deposited data

How the results depend on the processing

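Fold changes were recomputed under each alternative for 59 pairs of an interferon response gene and a comparison, those called or nearest to a call with all libraries and those called with libraries left out, and 11 turned sign in at least 1 alternative, none of them called with all libraries by edgeR. With ConvR chow 1 and 2 both left out, Mx2 and Oas2 turned to 0.21 and 0.13 for ConvD against ConvR chow, Oas2 and Parp14 to -0.0855 and -0.175 for ConvR against GF chow, and Parp14 to -0.0902 for ConvR against GF over both diets. With a library left out, Ifi44 and Ifit2 ran from -0.34 to 1.03 and from -0.0689 to 0.98 for ConvD against GF chow, Ifit2 from -0.0514 to 0.47 for ConvR against GF over both diets, Ifit3 from -0.37 to 0.81 for GF HF/HS against GF chow, and Parp14 from -0.0540 to 0.15 for HF/HS against chow over both kinds of mice. With the length trend removed the values were -0.000103 for Ifi44, 0.00678 for Ifit3 and -0.0662 for Parp14 in those comparisons, and Ifit3 was at 0.24 on TPM and 0.0197 with the replicate block. On TPM, Stat2 turned to 0.0295 for HF/HS against chow over both kinds of mice. Of 86 called pairs of a gene from the other lists and a comparison, 2 turned sign, both on TPM, Psmb6 to 0.00798 in the same comparison and Uba7 to 0.0270 for ConvR HF/HS against ConvR chow.

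The counts of called genes moved as follows, out of 38. The DESeq2 Wald test called 3 for ConvR against GF chow, 3 for ConvD against GF chow, 2 for ConvD against ConvR chow, 8 for ConvR HF/HS against ConvR chow, 2 for GF HF/HS against GF chow and 1 for ConvR against GF over both diets. On TPM the same comparisons gave 1, 0, 5 and 19, with 0 in the last 2, and the interaction gave 4 and HF/HS against chow over both kinds of mice 13. With the length trend removed, ConvD against GF chow gave 0, ConvD against ConvR chow 2 and ConvR HF/HS against ConvR chow 3. With the compared groups alone these gave 0, 0 and 8, and GF HF/HS against GF chow gave 1. With no filter on low counts ConvD against GF chow gave 0. With ConvR chow 1 and 2 both left out, ConvD against ConvR chow and ConvR HF/HS against ConvR chow gave 0 and HF/HS against chow over both kinds of mice gave 1. The cause of these moves was not tested.

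Leaving out each library in turn gave 0 to 3 calls for ConvR against GF chow, 0 to 2 for ConvD against GF chow, 0 to 5 for ConvD against ConvR chow, 0 to 0 for ConvR against GF on HF/HS, 0 to 5 for ConvR HF/HS against ConvR chow, 0 to 4 for GF HF/HS against GF chow, 0 to 0 for the interaction, 0 to 2 for ConvR against GF over both diets and 3 to 12 for HF/HS against chow over both kinds of mice. Same-numbered mice of different groups showed little common deviation: over 30 pairs the correlation ran from -0.23 to 0.25 and was over 0.1 in 2. A low correlation cannot exclude a pairing by number, and the main fit used none. With the replicate block ConvD against GF chow gave 0 calls (Isg15 adjusted p = 0.0591) and ConvR HF/HS against ConvR chow 4, without Gbp3 (adjusted p = 0.0523). At the depth of these libraries Oas1g, the gene of lowest TPM, had an SE of 0.32 for ConvR against GF on HF/HS.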
